A study of Mus musculus with 6 samples.

Results

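The genes described here encode 9 proteins of endothelial tight and adherens junctions: Cdh5, Cldn5, Ocln, Marveld2, Lsr, Jam2, Esam, Tjp1 and Cgn. They were taken by gene symbol from a count table of 24421 genes, in which all 9 were present, and all 9 were among the 14362 genes that passed a filter on low counts. The RNA was that of isolated retinal endothelial cells of mouse pups on a mixed BL6/CD1 background, which were given tamoxifen on postnatal day 1 and collected on postnatal day 7. In the 3 Smad4-iECKO samples both the floxed Smad4 gene and Cdh5-CreERT2 were present, the latter a Cre recombinase that tamoxifen activates and that a Cdh5 promoter drives in endothelium. The 3 Smad4f/f samples, called controls here, had floxed Smad4 with no Cre, and the protocol gives tamoxifen for all 6 samples. The labels do not say whether a sample came from 1 pup or several, so the spread between samples may in part be technical. Total counts ran from 12633018 to 23164952 in 5 libraries, and Smad4-iECKO replicate 2 held 2233360. Smad4 itself was at 140.0 ± 26.5 CPM in the controls and 118.7 ± 21.7 CPM in Smad4-iECKO (SD, n = 3 each), and a count over the whole gene, which includes exons that may remain after deletion, does not check the genotype.

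Junctions seal the gaps between neighbouring endothelial cells. Adherens junctions hold the cells together through VE-cadherin, and tight junctions add strands of claudins that restrict the passage of ions and small molecules. In retina and brain these strands, with occludin, tricellulin and the scaffold proteins that tie them to actin, form the tight barrier that separates blood from neural tissue. SMAD4, the common partner of receptor-activated SMADs, carries BMP and TGF-beta signals to the nucleus of these cells.

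The start regions of Ocln and Cldn5 are shown because Ocln gave the clearest separation between the groups and Cldn5 is the main claudin of this endothelium. Each run is the 250 bases before an annotated start on the strand of the gene, from RefSeq on GRCm38.p6, the build called mm10. Ocln had 2 listed starts, of which 1 was read, and Cldn5 had 1. Capitals mark CAGAC or its reverse complement GTCTG, the short core that SMAD proteins are known to bind.
Ocln, chr13:100552719-100552968, minus strand: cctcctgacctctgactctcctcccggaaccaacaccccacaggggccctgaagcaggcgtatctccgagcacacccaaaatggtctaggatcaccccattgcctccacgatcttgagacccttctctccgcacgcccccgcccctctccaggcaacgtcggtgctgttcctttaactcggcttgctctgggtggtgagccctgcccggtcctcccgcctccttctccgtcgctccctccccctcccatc
Cldn5, chr16:18776597-18776846, plus strand: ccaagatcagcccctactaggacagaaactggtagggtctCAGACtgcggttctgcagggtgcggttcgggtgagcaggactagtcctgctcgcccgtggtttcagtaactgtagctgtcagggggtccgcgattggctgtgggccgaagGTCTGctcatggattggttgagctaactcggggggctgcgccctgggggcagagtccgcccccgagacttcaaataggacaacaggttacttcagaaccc
CAGAC on either strand was found 2 times in the Cldn5 window, beginning 210 and 100 bases before the start, and 0 times in the Ocln window, and 42.2% of 32851 windows of the same length hold it. The GC-rich SMAD element GGCGCC was in neither window and is in 9.59% of all windows. The ETS motif CCGGAA, also read on both strands, occurred 1 time before Ocln and not before Cldn5, against 12% of all windows, and in neither window did 2 of these motifs overlap. These matches describe letters in a window and are not binding sites. Windows were matched for 6 of the 9 members, and CAGAC was found 1 time each in those of Marveld2, Lsr and Cgn and 0 times in that of Tjp1. Marveld2 also had 2 listed starts, of which 1 was read, and the Tjp1 window lies inside the Tjp1 gene span given below.

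The levels of the 9 transcripts can be set beside each other only per length, here as CPM per kb of annotated exon (CPM, the field's usual read count relative to library size, here with the TMM scaling of edgeR). Cldn5 stood first in the controls at 401 ± 345 CPM per kb (SD, n = 3), followed by Cdh5 at 105 ± 63.1 CPM per kb, Esam at 74.2 ± 51.8 CPM per kb, Tjp1 at 64.0 ± 26.3 CPM per kb and Jam2 at 45.8 ± 7.50 CPM per kb. Lsr (27.2 ± 25.5 CPM per kb) and Ocln (16.3 ± 12.3 CPM per kb) came next, with Cgn (3.61 ± 0.481 CPM per kb) and Marveld2 (2.84 ± 1.78 CPM per kb) last. Neighbours in this order lay within 1 SD of each other except Ocln and Cgn, and for Cldn5 and Cdh5 this rested on the wide spread of Cldn5. The order of the group means in Smad4-iECKO had the same 9 ranks, from 303 ± 273 CPM per kb for Cldn5 to 1.83 ± 0.725 CPM per kb for Marveld2, with Ocln at 5.78 ± 1.54 CPM per kb. All 9 coordinates below are from GENCODE M21 on mm10.

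Before any correction for how much endothelial RNA a library held, 7 of the 9 junction transcripts had a negative log2 fold change and 2 a positive one, and without control replicate 1 the negative ones numbered 4. The median log2 fold change of the 9 was -0.41, against -0.017 over all 14362 genes tested, of which 51.8% had a negative value, as did 21 of 28 endothelial reference genes (median -0.27). In edgeR's quasi-likelihood test with Benjamini-Hochberg adjustment 0 of the 9 passed an adjusted p of 0.05, the background being 0% of 14362 genes. Ocln alone of the 9 had an unadjusted p under 0.05, which 1.31% of all genes reached. DESeq2 called 0 of the 9 too, with a background of 0.0611%, and Ocln was again the 1 member with an unadjusted p under 0.05, against 2.16% of genes. With limma-voom and sample quality weights 0 of the 9 passed, against 0.0557% of genes. In CPM the groups overlapped for all 9, while they did not for 5.31% of all genes. In a bulk sample, fewer endothelial cells and less RNA per cell cannot be told apart.

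Cdh5 encodes VE-cadherin, the adhesion receptor of endothelial adherens junctions (ENSMUSG00000031871, chromosome 8, 104101625 to 104144511). It was at 672, 152 and 502 CPM in control replicates 1, 2 and 3 and at 310.0, 503 and 566 CPM in Smad4-iECKO replicates 1, 2 and 3. The Smad4-iECKO values all lay within the Smad4f/f range, and replicate 2 of Smad4f/f was the lowest of the 6. edgeR put the log2 fold change at 0.06 ± 0.52 (SE, unadjusted p = 0.914). The same promoter drives the Cre transgene in the Smad4-iECKO samples. The labels do not say how much of the Cdh5 gene that transgene carries, and its part in the Cdh5 count was not tested.

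Cldn5 encodes claudin-5, the principal strand-forming claudin of blood-brain and blood-retina barrier endothelium (ENSMUSG00000041378, chromosome 16, 18776847 to 18778262). Its CPM was 1105, 151 and 449 in control replicates 1, 2 and 3 and 158, 871 and 257 in Smad4-iECKO replicates 1, 2 and 3. Each group thus held low and high libraries, with a range of 7.32-fold in the controls and 5.53-fold in Smad4-iECKO. edgeR put the log2 fold change at -0.41 ± 0.78 (SE, unadjusted p = 0.610). Without control replicate 1 it was 0.50, and without Smad4-iECKO replicate 2 it was -1.48.

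Ocln and Marveld2 encode occludin and tricellulin, MARVEL-domain proteins of the tight junction, the second concentrated where 3 cells meet. Both genes lie on the minus strand of chromosome 13, Ocln (ENSMUSG00000021638) at 100496507 to 100552718 and Marveld2 (ENSMUSG00000021636) at 100595957 to 100616971, with 43.2 kb between them. Ocln was at 123, 18.8 and 65.5 CPM in control replicates 1, 2 and 3. In Smad4-iECKO replicates 1, 2 and 3 it was at 17.0, 27.0 and 29.3 CPM. A pair of Smad4f/f libraries were above every Smad4-iECKO library, and control replicate 2 lay among them. The means were 68.9 ± 51.9 and 24.4 ± 6.52 CPM, 2.82-fold lower in Smad4-iECKO, and the edgeR log2 fold change was -1.50 ± 0.59 (SE, unadjusted p = 0.0321, Benjamini-Hochberg adjusted p = 0.9999). Without control replicate 1 the Ocln log2 fold change was -0.80 (edgeR, unadjusted p = 0.191), and scaled to the endothelial reference genes described below it was -1.01 (edgeR, unadjusted p = 0.255). Marveld2 was low throughout, at 15.9, 3.91 and 8.98 CPM in the controls and 4.89, 4.65 and 9.01 CPM in Smad4-iECKO. The groups overlapped, and edgeR put the log2 fold change at -0.61 ± 0.60 (SE, unadjusted p = 0.334), and at -0.036 without control replicate 1. The Smad4-iECKO replicate 2 value rested on 10 reads, for which the exact Poisson 95% interval is 2.23 to 8.55 CPM, and the Ocln value there on 58 reads, with an interval of 20.5 to 34.9 CPM. These intervals cover counting error only.

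Lsr encodes angulin-1, which recruits tricellulin to the corners between cells and is a known tricellular component of brain endothelium (ENSMUSG00000001247, chromosome 7, 30957770 to 30973464). Its CPM was 121, 13.1 and 43.3 in the controls and 39.5 in Smad4-iECKO replicate 2, against 19.0 and 28.0 in Smad4-iECKO replicates 1 and 3. The Smad4f/f group spanned 9.21-fold and enclosed all Smad4-iECKO values. edgeR put the log2 fold change at -1.05 ± 0.68 (SE, unadjusted p = 0.159), and 0.01 without control replicate 1. An antisense transcript, Gm4673, covers 43.55% of the Lsr exon bases, and the library kit does not mark strand. Gm4673 was not among the genes counted, so the Lsr count may include antisense reads from that overlap, and their part was not tested.

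Jam2 and Esam encode junctional adhesion molecules with immunoglobulin domains. Esam (ENSMUSG00000001946, chromosome 9, 37528078 to 37538319) was at 356, 59.6 and 222 CPM in the controls and at 111, 244 and 180.3 CPM in Smad4-iECKO. Its values followed those of Cdh5 across the libraries, and all 3 Smad4-iECKO values fell inside the Smad4f/f range (log2 fold change -0.26 ± 0.58, SE). Jam2 (ENSMUSG00000053062, chromosome 16, 84774123 to 84825928) ran in another order, at 226, 312 and 292 CPM in the controls and 265, 125 and 261 CPM in Smad4-iECKO. It was highest in control replicate 2, the library in which Cdh5, Cldn5, Esam, Lsr and Marveld2 were lowest. For Jam2 the edgeR log2 fold change was -0.35 ± 0.36 (SE, unadjusted p = 0.354).

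Tjp1 and Cgn encode ZO-1 and cingulin, cytoplasmic proteins that connect the junction to actin. Tjp1 (ENSMUSG00000030516, chromosome 7, 65296165 to 65527781) was at 691, 283 and 526 CPM in the controls and 389, 264 and 474 CPM in Smad4-iECKO. Its groups overlapped (log2 fold change -0.41 ± 0.40, SE). Cgn (ENSMUSG00000068876, chromosome 3, 94760069 to 94786492) was at 18.7, 22.0 and 24.5 CPM in the controls and 24.2, 49.3 and 16.03 CPM in Smad4-iECKO. The highest Cgn value came from the shallow Smad4-iECKO replicate 2, on 106 reads, and without that library the log2 fold change went from 0.43 ± 0.44 (SE) to -0.14.

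**Figure D1:**
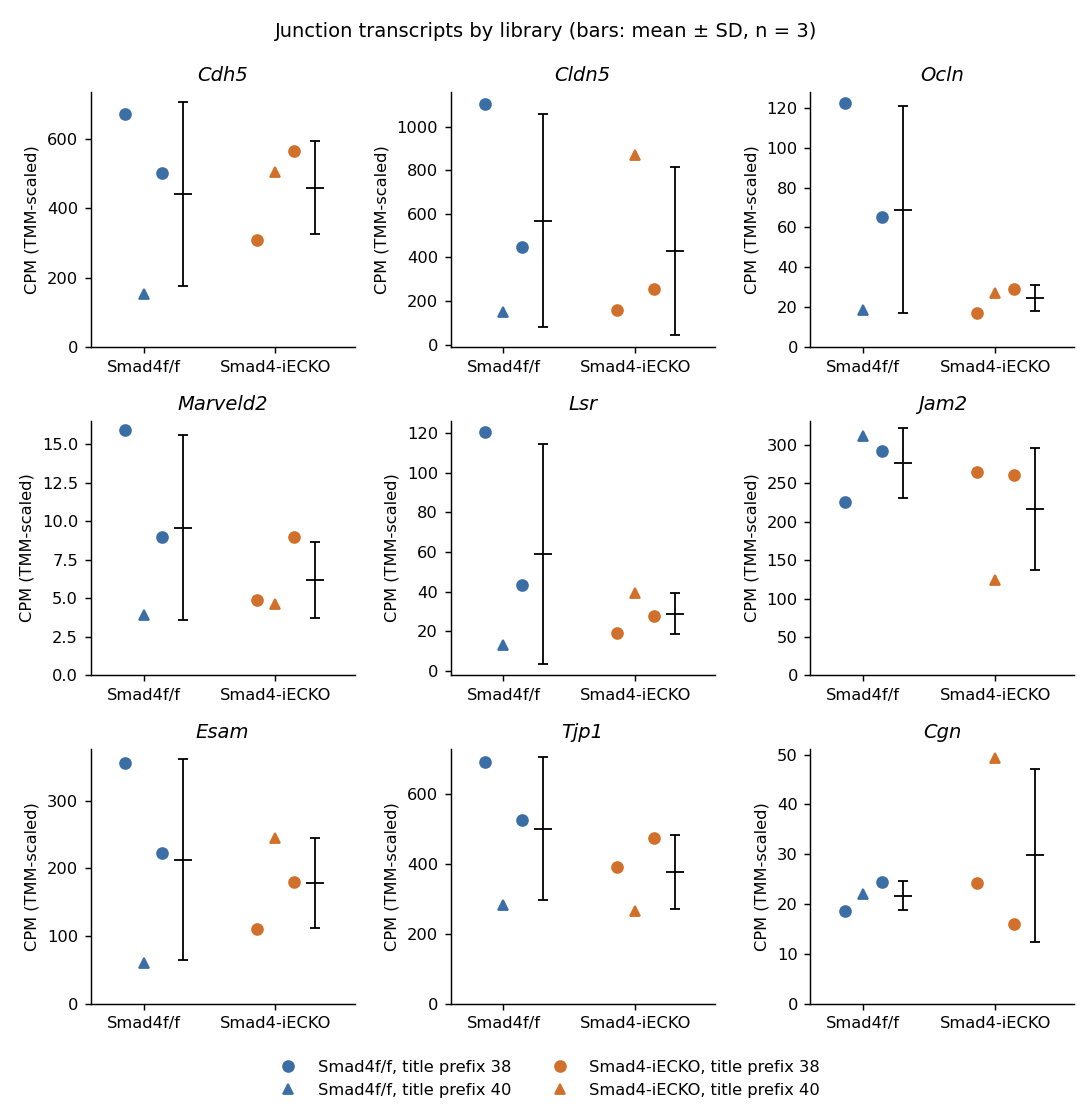
CPM of each of the 9 junction transcripts (y axis, TMM-scaled) in the 3 Smad4f/f and 3 Smad4-iECKO libraries, with mean ± SD beside the points and triangles for sample titles that begin with Lit40. Ocln was at 17.0 to 29.3 CPM in Smad4-iECKO and at 18.8 to 123 CPM in the controls, and in each panel the groups overlap.

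The sample titles start with Lit38 in 2 libraries of each group and with Lit40 in 1 of each, here prefix 38 and prefix 40, and the labels do not say what the letters stand for. In the prefix 38 libraries the log2 ratio (Smad4-iECKO over controls) was -2.004 for Ocln, -1.81 for Cldn5, -1.65 for Lsr, -0.99 for Esam, -0.85 for Marveld2, -0.49 for Tjp1, -0.47 for Cdh5, -0.12 for Cgn and 0.04 for Jam2. In the prefix 40 pair, which has no replicate and no test, it was 2.53 for Cldn5, 2.04 for Esam, 1.73 for Cdh5, 1.59 for Lsr, 1.16 for Cgn, 0.52 for Ocln, 0.25 for Marveld2, -0.10 for Tjp1 and -1.33 for Jam2. Thus 8 of the 9 had opposite signs under the 2 prefixes, Tjp1 being the exception, and the share of all genes that turned was not determined. The endothelial reference genes described below turned too, with a log2 ratio of -0.84 under prefix 38 and 1.21 under prefix 40. Of the 8, Jam2 turned in the reverse direction, from 0.04 to -1.33. Under prefix 38 Jam2 and Cgn lay close to 0 (edgeR, unadjusted p = 0.972 and 0.748), so their sign there is uncertain. An edgeR fit on the 4 prefix 38 libraries gave unadjusted p-values of 0.00156 for Ocln, 0.00572 for Cldn5, 0.00751 for Lsr and 0.0259 for Esam, against 4.13% of all genes with an unadjusted p under 0.05, and 0 of the 9 passed after adjustment (background 0% of 14600 genes).

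**Figure D2:**
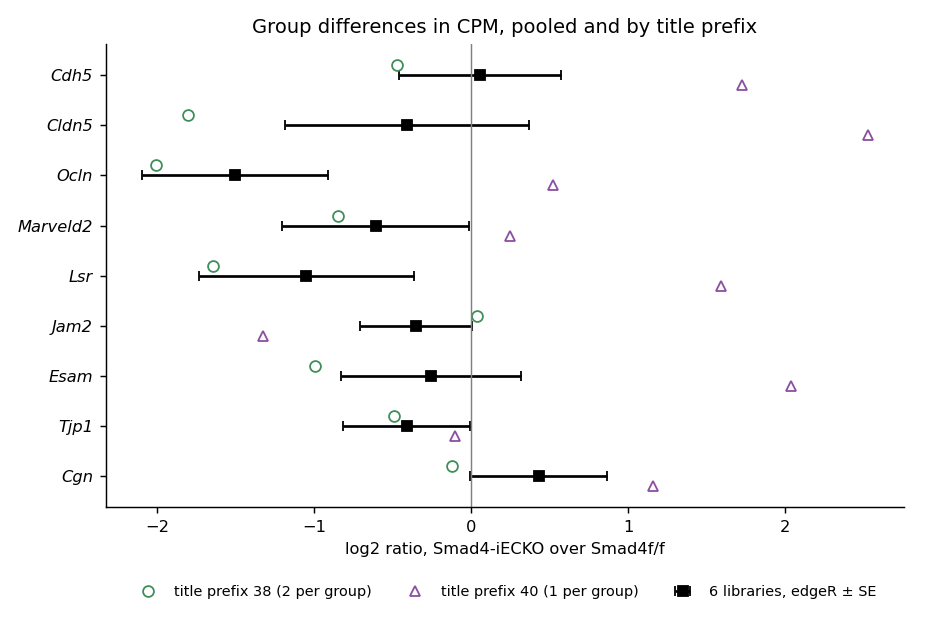
Log2 ratio of Smad4-iECKO over Smad4f/f (x axis) for each junction transcript, as the edgeR estimate ± SE over 6 libraries (squares), in the 4 prefix 38 libraries (circles) and in the prefix 40 pair (triangles). The circles and triangles lie on opposite sides of 0 for every gene except Tjp1, with the circles of Jam2 (0.04) and Cgn (-0.12) close to 0.

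How far each transcript followed the endothelial share of a library was read against 28 endothelial genes that are not junction members, among them Pecam1, Kdr, Flt1, Tie1 and Erg. These took 0.872%, 0.171% and 0.475% of counts in control replicates 1, 2 and 3 and 0.305%, 0.491% and 0.466% in Smad4-iECKO replicates 1, 2 and 3. The rod photoreceptor list took 0.751% to 1.41% of counts in the controls and 0.669% to 1.15% in Smad4-iECKO, so rod transcripts were present in every library, and their part in the results was not tested. Of the endothelial markers, Pecam1 was at 409 ± 336 and 318 ± 79.8 CPM and Kdr was at 840 ± 427 and 775 ± 207 CPM (controls first, SD, n = 3 each). Over the 6 libraries the log2 CPM of Esam and Lsr (Pearson's r = 0.94 each), Cdh5 (0.94), Marveld2 (0.92) and Ocln (0.87) was higher where the mean log2 CPM of the reference genes was higher. Tjp1 (0.82) and Cldn5 (0.78) followed it less closely, and Jam2 (-0.24) and Cgn (-0.21) did not follow it.

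Spearman's rho for the same relations was 0.94 for Ocln and Lsr, 0.89 for Marveld2, 0.83 for Cdh5, Cldn5, Esam and Tjp1, -0.43 for Jam2 and -0.20 for Cgn. The exact two-sided permutation p of r was 0.00556 for Cdh5, 0.00833 for Esam, 0.0111 for Lsr and Marveld2, 0.0194 for Ocln, 0.0417 for Tjp1, 0.0597 for Cldn5, 0.574 for Jam2 and 0.656 for Cgn. For rho the exact permutation p was 0.0167 for Ocln and Lsr, 0.0333 for Marveld2, 0.0583 for Cdh5, Cldn5, Esam and Tjp1, 0.419 for Jam2 and 0.714 for Cgn. After Benjamini-Hochberg adjustment over 14334 genes none of the 9 permutation p-values passed, with adjusted values of 0.448 to 0.963 for r and 0.630 to 0.935 for rho, and a background of 0% for each. The unadjusted permutation p of r was under 0.05 for 6 of the 9, against 8.44% of all genes, and r was at least 0.9 for 4 of the 9, against 2.88%. Without control replicates 1 and 2, the libraries farthest from the median of the reference, r was 0.89 for Cdh5, 0.87 for Marveld2, 0.86 for Ocln, 0.72 for Lsr, 0.71 for Esam, 0.54 for Tjp1, 0.38 for Cldn5, 0.22 for Jam2 and -0.31 for Cgn. The Cldn5 relation therefore rested in good part on those 2 libraries.

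**Figure D3:**
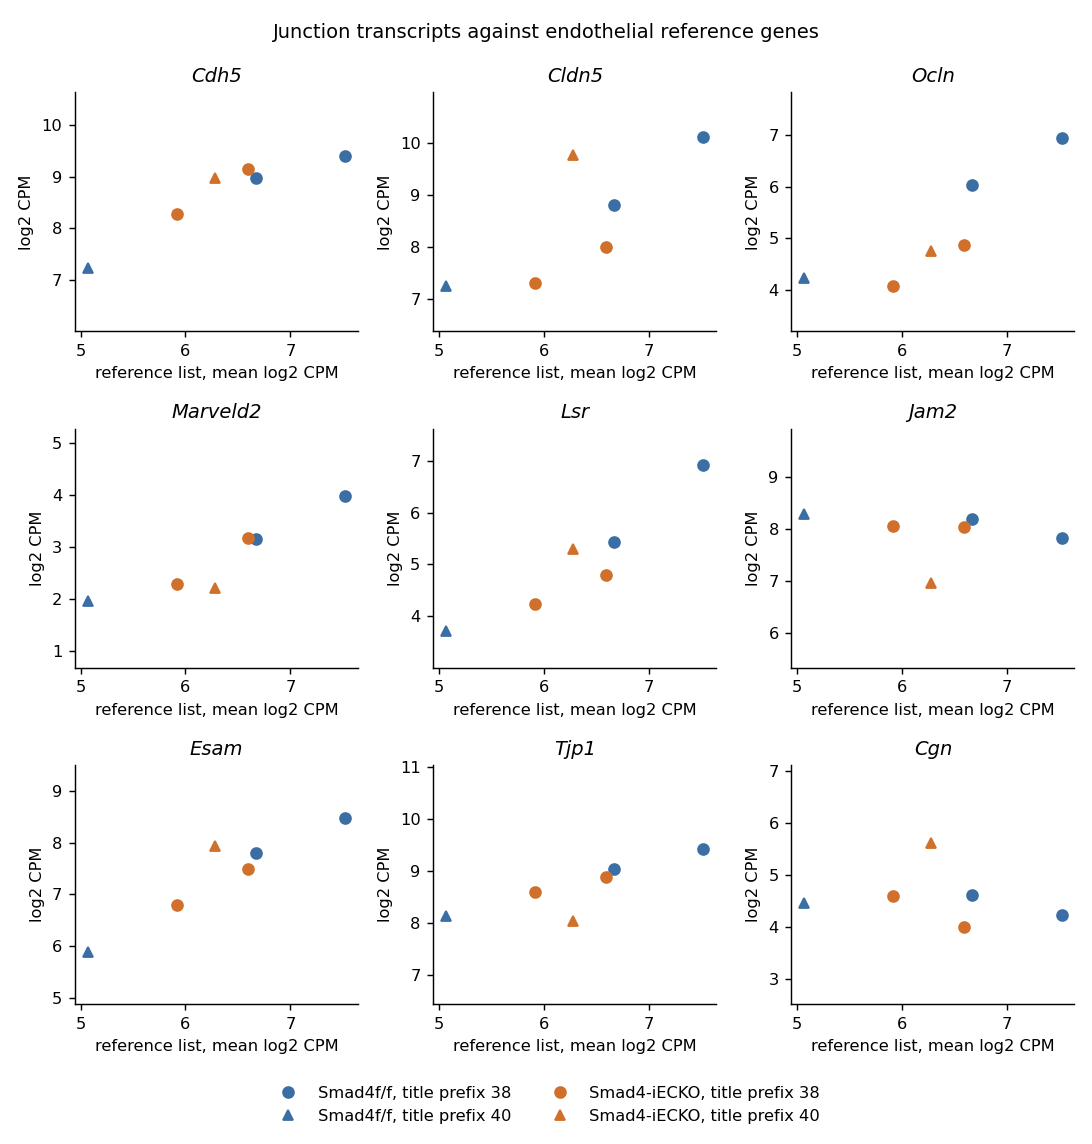
Log2 CPM of each junction transcript (y axis, each panel spanning the same width) against the mean log2 CPM of 28 endothelial reference genes (x axis) in the 6 libraries. Cdh5, Esam, Lsr, Marveld2 and Ocln climb from control replicate 2 to control replicate 1, and Jam2 and Cgn do not (r = -0.24 and -0.21).

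Each transcript was then taken relative to the reference genes within its library, as its log2 CPM minus their mean log2 CPM. On this scale Ocln was lower in every Smad4-iECKO library. It stood at -0.59, -0.84 and -0.64 in control replicates 1, 2 and 3 and at -1.82, -1.53 and -1.72 in Smad4-iECKO replicates 1, 2 and 3. The values within a group lay close together, and the gap between the groups was wider than either group. The means were -0.69 ± 0.13 and -1.69 ± 0.15 (log2, SD, n = 3 each), a difference of -1.005, or 2.01-fold. An exact two-sided permutation test gave p = 0.1, which is the lowest p possible with 3 libraries a group. Groups that did not overlap, with Smad4-iECKO lower, were found for 0.712% of 14334 genes, and a difference at least as far below 0 for 7.99%. The difference for Ocln was -1.16 within prefix 38 and -0.69 within prefix 40, so the sign that had turned between the prefixes in CPM did not turn here.

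Cdh5 was higher relative to the reference in every Smad4-iECKO library, at 1.87, 2.18 and 2.303 in the controls and 2.36, 2.69 and 2.55 in Smad4-iECKO. The difference of 0.42 left a narrow gap between the groups (exact permutation p = 0.1), and groups apart in this direction made up 2.49% of genes. With Pecam1 alone or the median of the list as the reference, the Cdh5 groups overlapped. Cldn5 relative to the reference was at 2.59, 2.17 and 2.14 in the controls. In Smad4-iECKO it was at 1.39 and 1.42 in replicates 1 and 3, below all Smad4f/f libraries, and at 3.48 in replicate 2, above them. Its mean difference was -0.20, with -0.96 within prefix 38 and 1.32 within prefix 40. The size of these values depended on the reference. With the median of the list, the Cldn5 difference was -0.47, with -0.95 within prefix 38 and 0.50 within prefix 40. The highest Smad4-iECKO value was then 2.81, against 2.76 for the highest control value.

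The other members overlapped between the groups on this scale. Lsr differed by -0.41 (exact permutation p = 0.3), Marveld2 by -0.32 (exact permutation p = 0.3), Jam2 by -0.26 (exact permutation p = 0.9), Tjp1 by -0.20 (exact permutation p = 0.7), Esam by 0.18 (exact permutation p = 0.7) and Cgn by 0.47 (exact permutation p = 0.7). Esam was among the steadiest in the controls, with an SD of 0.15, and Jam2 and Cgn, which did not follow the reference, were the widest, with SDs of 1.47 and 1.35. The median relative difference of the 9 was -0.20, against 0.12 over all genes.

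**Figure D4:**
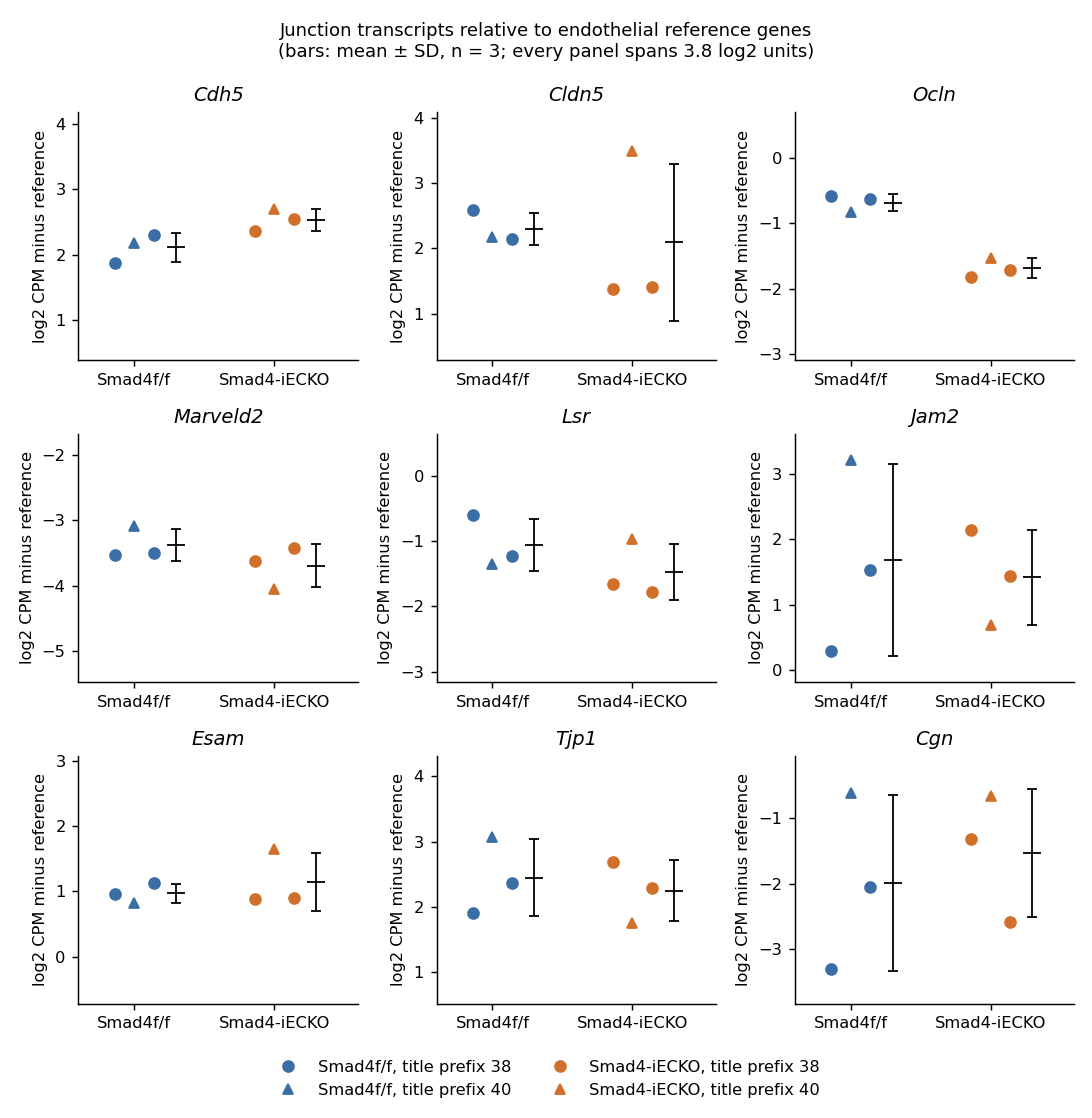
Log2 CPM of each junction transcript minus the mean log2 CPM of the endothelial reference genes (y axis, 3.8 log2 units in every panel), by library, with mean ± SD. The Ocln points of the groups lie apart (-0.84 to -0.59 against -1.82 to -1.53), and Cldn5 in Smad4-iECKO splits into a pair of low libraries and replicate 2 at 3.48.

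The same Ocln reads were also set against the Cdh5 reads of each library, with no scaling between libraries, and the groups again lay apart. Any Cdh5 reads from the Cre transgene would enter this divisor in Smad4-iECKO only, and their part was not tested. Control replicates 1, 2 and 3 held 18.2, 12.4 and 13.0 Ocln reads per 100 Cdh5 reads. Smad4-iECKO replicates 1, 2 and 3 held 5.48, 5.36 and 5.17, closer to each other than to any Smad4f/f library. The replicate 2 value rested on 58 Ocln reads (Poisson 95% interval 20.5 to 34.9 CPM around 27.0). In proportion that interval is wider than the spread of the 3 values, so their closeness does not measure the variation between samples. The means were 14.6 ± 3.21 and 5.34 ± 0.158 Ocln reads per 100 Cdh5 reads (SD, n = 3 each), a 2.73-fold difference (exact permutation p = 0.1). Marveld2 was at 2.37, 2.57 and 1.79 reads per 100 Cdh5 reads in the controls and 1.58, 0.923 and 1.59 in Smad4-iECKO. Lsr was at 17.95, 8.62 and 8.63 reads per 100 Cdh5 reads in the controls and 6.13, 7.85 and 4.94 in Smad4-iECKO. The 7.85 of Lsr rested on 85 reads (Poisson 95% interval 31.6 to 48.9 CPM around 39.5). The 1.59 of Marveld2 rested on 113 reads (7.42 to 10.8 CPM around 9.01). In proportion these intervals reach past the nearest Smad4f/f values, 8.62 and 1.79. For Ocln, Marveld2 and Lsr all Smad4-iECKO libraries were thus below all Smad4f/f libraries (exact permutation p = 0.1 each), which held for 1.58% of 14333 genes relative to Cdh5. With Cdh5 as the divisor these differences also hold the 0.42 by which Cdh5 itself stood higher against the reference, and of these 3 genes only Ocln stayed apart with each of the other references (the full list, its median and Pecam1 alone). Cldn5 was at 164, 99.4 and 89.4 reads per 100 Cdh5 reads in the controls and 50.9, 173 and 45.4 in Smad4-iECKO, with overlapping groups.

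**Figure D5:**
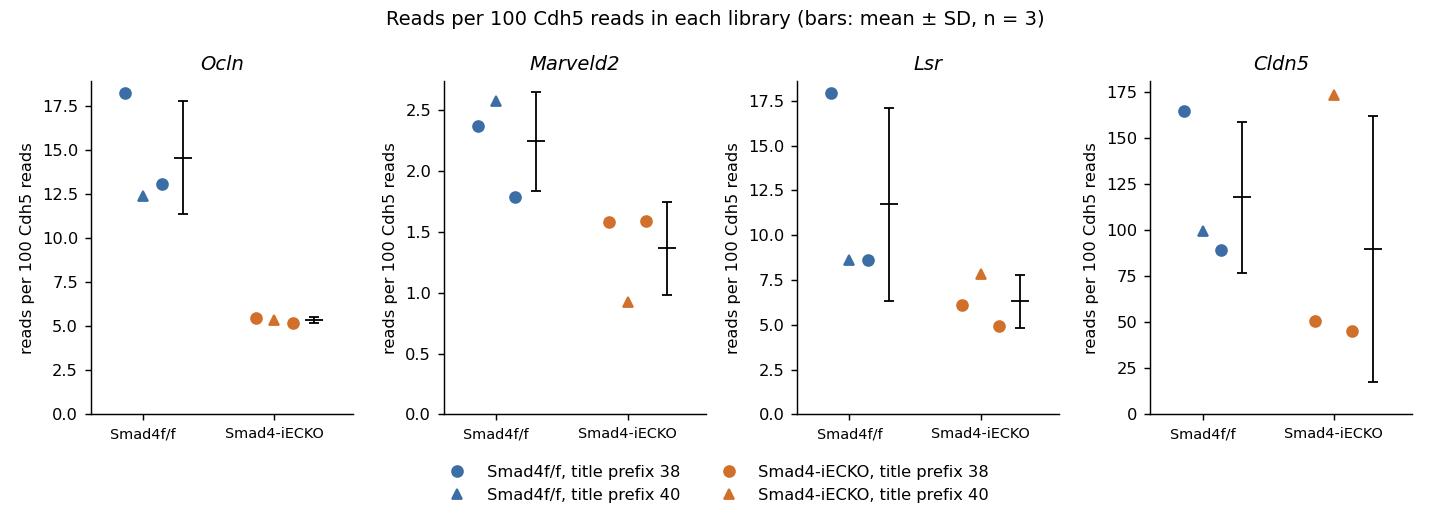
Reads of Ocln, Marveld2, Lsr and Cldn5 per 100 Cdh5 reads (y axes, from 0) in each library, with mean ± SD. Ocln sits at 5.17 to 5.48 in Smad4-iECKO and at 12.4 to 18.2 in the controls, and the Cldn5 groups overlap because Smad4-iECKO replicate 2 is at 173.

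Occludin, tricellulin, angulin-1 and cingulin are also made by epithelia, so markers of those cells are set beside them. Pigment epithelium genes took 0.00391% to 0.00407% of counts in the controls and 0.00316% to 0.00434% in Smad4-iECKO (15 genes in the table), with Rpe65 at 0.4999 CPM or less in every library. Of 18 epithelial genes, Epcam was at 0.988 CPM or less, Krt8 and Grhl2 at 0.558 CPM or less and Esrp1 at 0.576 CPM or less. The epithelial list summed to 0.00294% to 0.00419% of counts in the controls and 0.00462% to 0.00509% in Smad4-iECKO, higher in every Smad4-iECKO library. Krt18 was at 7.57 ± 1.20 and 14.6 ± 5.86 CPM (controls first). The group means of Krt8 (0.156 and 0.223 CPM) and Grhl2 (0.0649 and 0.242 CPM) went the same way. Those of Epcam (0.735 and 0.287 CPM) and Esrp1 (0.242 and 0.146 CPM) went the other way. Krt8 and Grhl2 had 7 reads or fewer in every library, too few to give a direction. The shallow Smad4-iECKO replicate 2, where 3 reads were worth 1.39 CPM, held 0 reads of Krt8, Grhl2, Epcam and Esrp1. The part of epithelial transcripts in the Ocln, Marveld2, Lsr and Cgn values was not tested. Microglial genes took 0.00665% to 0.0122% of counts in the controls and 0.0120% to 0.0177% in Smad4-iECKO, and 14 of 16 had a positive log2 fold change (median 0.91). Astrocyte genes took 0.0722% to 0.0860% and 0.0393% to 0.148% of counts, with 7 of 8 tested positive (median 0.61) and Gfap at 59.5 ± 51.5 and 146 ± 99.6 CPM. Pericyte genes took 0.0676% to 0.296% and 0.118% to 0.206% of counts. The part of these cell types in the junction gene differences was not tested.

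Other tight junction genes did not share a direction. Of 51 listed, 32 passed the filter, 16 with a positive and 16 with a negative log2 fold change (median -0.01), and 0 passed edgeR's test. Among them were Jam3 (50.6 ± 10.2 against 48.0 ± 11.8 CPM, Smad4f/f first here and below) and Ildr2, an angulin relative of Lsr (100.03 ± 20.98 against 93.1 ± 18.9 CPM). F11r, which encodes JAM-A, was at 52.3 ± 31.2 against 53.2 ± 11.3 CPM, and Cgnl1, or paracingulin, at 223 ± 170 against 244 ± 67.4 CPM. Relative to the endothelial reference both were higher in every Smad4-iECKO library, by 0.37 and 0.62 on the log2 scale (exact permutation p = 0.1 each). Of the 32, 4 were apart in this direction (F11r, Cgnl1, Cldn19 and Micall2) and 0 in that of Ocln, against 2.49% and 0.712% of all genes. The references with which the Cdh5 groups overlapped, Pecam1 alone and the median of the list, were not applied to these genes.

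Cldn12 (43.9 ± 14.3 against 34.9 ± 18.7 CPM), Cldn19 (3.44 ± 2.09 against 4.74 ± 1.46 CPM) and Cldn7 (1.88 ± 1.32 against 3.27 ± 2.84 CPM) were the claudins with the highest mean CPM on this list, which leaves out Cldn5. Cldn1 and Cldn3 were below the filter, at 1.59 and 2.32 CPM or less in every library, as were Marveld3 and the angulin gene Ildr1. The smallest unadjusted p-values on the list belonged to Micall2, an actin-linked Rab13 partner (6.19 ± 2.45 against 12.8 ± 1.82 CPM, edgeR unadjusted p = 0.0472), and Amot, which encodes angiomotin (33.6 ± 15.1 against 16.7 ± 4.01 CPM, edgeR unadjusted p = 0.0481). An unadjusted p under 0.05 was reached by 1.31% of all genes. Amotl2 and Pard6g followed, at 137 ± 22.8 against 226 ± 79.1 CPM and 17.3 ± 2.23 against 11.8 ± 2.21 CPM. In CPM the groups did not overlap for Micall2 and Amotl2, higher in Smad4-iECKO, and for Pard6g, lower there, and they overlapped for Amot. Groups apart in either direction were found for 5.31% of all genes, and these 4 were picked by their p-values. None of these 4 passed after adjustment over all genes.

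Of 29 adherens junction genes, 27 passed the filter, 14 with a positive and 13 with a negative log2 fold change (median 0.01), and 0 passed edgeR's test. The catenins of the VE-cadherin complex were at 1137 ± 413 against 798 ± 228 CPM for Ctnnb1 (beta-catenin), 303 ± 157 against 306 ± 40.6 CPM for Ctnna1 and 309 ± 85.9 against 291 ± 89.97 CPM for Ctnnd1 (p120). Ptprb, which encodes the phosphatase VE-PTP that pairs with VE-cadherin, was at 740 ± 458 against 518 ± 183 CPM. The smallest unadjusted p-values were those of Plekha7 (0.124), Ajuba (0.174), Cdh2, which encodes N-cadherin (0.199), and Pdcd10 (0.207), all from edgeR.

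Among 10599 genes with a mean of at least 10 CPM, the pattern most like that of Ocln over the 6 libraries belonged to Tek, the gene of the angiopoietin receptor TIE2 (Pearson's r = 0.998), then Tnfsf10 (0.995) and Angptl4 (0.992). Tek was at 485, 82.3 and 259 CPM in the controls and 70.0, 121 and 133 CPM in Smad4-iECKO. Nearest to Cldn5 were Trim27 (0.993), Ccdc3 (0.992) and Ptgis (0.989), and nearest to Cdh5 were Mov10 (0.995), Rassf2 (0.995) and Ddx58 (0.993). Within the junction group Ocln was most like Lsr (0.93) and Marveld2 (0.91), Cldn5 was most like Lsr (0.91) and Esam (0.90), and Cdh5 was most like Esam (0.96). These values are picked from many genes over 6 points that share library depth and endothelial share.

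In the authors' deposited table, Ocln was the 1 junction gene with an adjusted p under 0.05, at a log2 fold change of -1.16, a standard error of 0.28 and an adjusted p of 0.00126. The background in the authors' deposited table was 13.4% of 14225 genes. Lsr followed in the authors' deposited table at a log2 fold change of -0.74 with an adjusted p of 0.0852, and Cdh5 was at 0.06 with an adjusted p of 0.903. The count table holds 3 columns per sample with identical values in every gene. DESeq2 on all 18 columns, as if each were a sample, gave Ocln a log2 fold change of -1.49, a standard error of 0.36 and an adjusted p of 0.00136, with a background of 12.1% of genes. On 1 column per sample the DESeq2 log2 fold change was -1.49, the standard error 0.60 and the adjusted p 0.9996.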

How the data were processed

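Of the tables of the whole series, the count table held the authors' deposited read counts, not normalized, in 18 columns, 3 per sample with the same values, of which 1 was used. All columns were matched to samples, leaving 0 unmatched. The authors' deposited comparison held a mean normalized signal, a log2 fold change with its standard error, a test score and p-values, per the file headers. The submitters' processing notes name STAR, DESeq2 and mm10, without versions. Per the labels' protocols, the library kit was TruSeq RNA v2, which does not mark strand. Groups followed the genotype label, and replicate numbers follow accession order and so pair nothing.

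Genes were tested with glmQLFit and glmQLFTest of edgeR 4.0.16 (R 4.3.3), with TMM scaling and no covariate, after filterByExpr with a minimum count of 10 and a total of 15. Calls needed a Benjamini-Hochberg adjusted p under 0.05 over all 14362 genes. A standard error is the log2 fold change divided by the square root of F. Alternatives used DESeq2 1.42.0 and the voom method of limma 3.58.1. On counts simulated for this comparison (14121 genes, 50 changed at each size) edgeR found 2 at 2-fold, 30 at 4-fold and 45 at 8-fold, with 5 false calls. DESeq2, over 14362 genes, found 9, 39 and 47 with 42 false calls, and limma-voom found 3, 28 and 42 with 2 false calls. The simulated counts were drawn gene by gene, without the shared swing in endothelial share that these libraries had. Relative levels used log2 CPM with a prior count of 0.5 and 28 of 29 listed endothelial genes (1 was not matched), tested by exact permutation. A count of 3 was worth 0.123 to 0.239 CPM, and 1.39 CPM in Smad4-iECKO replicate 2.

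The 9 members and the gene lists were chosen with earlier results of these data known. Named genes were the members, Smad4, 14 other junction genes whatever their values, the 3 other claudins with the highest mean CPM, the 4 smallest p-values of each junction list, and the 3 genes most like Ocln, Cldn5 and Cdh5. One of the genes this rule names is not reported here. Alternatives were other scalings, filters and tools, the title prefix as a block or alone, other references, and leaving out each replicate. Gene coordinates are from GENCODE M21 and start regions from RefSeq (GRCm38.p6). Python scipy 1.17.1 and matplotlib 3.10.9 were used.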

Additional observations from a re-analysis of the deposited data

How the results depend on the processing

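The log2 fold change of Ocln was negative in all 15 settings (-2.04 to -0.80), and so was its difference relative to the endothelial reference in all 11 (-1.43 to -0.94). These settings reuse the same 6 libraries and do not include the prefix 40 pair alone. In that pair the Ocln log2 ratio was 0.52 in CPM and -0.69 relative to the reference. The unadjusted edgeR p of Ocln, 0.0321 over the 6 libraries, was 0.255 when scaled to the endothelial list. With the title prefix, which the groups share, as a block it was 0.0593. Leaving out control replicates 1, 2 and 3 in turn gave 0.191, 0.00121 and 0.0556, and leaving out Smad4-iECKO replicates 1, 2 and 3 in turn gave 0.0913, 0.0648 and 0.0400. The replicate numbers follow accession order and pair no libraries, so they were not used as a block.

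Genes called over all genes numbered 12 with DESeq2, 8 with limma-voom and 2235 with DESeq2 on all 18 columns, against 0 in the edgeR test, and with the 18 columns 1 member (Ocln) was called. Members with a negative log2 fold change numbered 4 to 9 when 1 library was left out, 4 without control replicate 1 and 9 without Smad4-iECKO replicate 2. Scaling to the endothelial list turned the log2 fold change of Cldn5 to 0.14 and of Esam to 0.22, and limma-voom turned that of Cgn to -0.17. In the prefix 38 libraries alone it was -0.44 for Cdh5, 0.0097 for Jam2 and -0.11 for Cgn. Leaving out each library gave log2 fold changes of -0.36 to 0.49 for Cdh5, -1.48 to 0.50 for Cldn5, -0.997 to -0.036 for Marveld2, -1.53 to 0.012 for Lsr, -0.70 to 0.33 for Esam and -0.14 to 0.73 for Cgn.

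Relative to Cdh5 alone the difference of Esam was -0.25, and relative to the median of the list it was -0.090. Leaving out each library gave relative differences of -0.90 to 0.15 for Cldn5, -0.95 to 0.51 for Jam2, -0.078 to 0.31 for Esam, -0.47 to 0.11 for Tjp1 and -0.19 to 1.15 for Cgn. The correlation of Jam2 with the reference was 0.22 without the 2 libraries farthest from the median. The cause of these changes was not tested. With 3 libraries per group no exact permutation p can fall below 0.1, and the shallow Smad4-iECKO replicate 2 limits the low members most.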
